A study of Mus musculus with 12 samples.

Results

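Of the 51691 catalogue probes on a mouse microarray of colorectal tissue, 22 held a steady signal before treatment, 1 week after a carcinogen and at 2 weeks, after the first course of a colitis-inducing agent, and then read at least 2 log2 units lower in tumour tissue at 10 weeks. The array carried 145548 probes in all, of which the catalogue probes are those whose identifiers begin with A_ and the other 93857 are of a custom design. The study followed male C57BL/6 mice through the azoxymethane and dextran sulfate sodium model (AOM/DSS) and hybridised total RNA from each sample to a 1-colour array labelled with Cy3. There were 12 arrays, 3 at each of 4 times.

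The 0-week tissue came from mice whose titles say they had no treatment, although another label field of the same samples names AOM/DSS. The 1-week tissue followed a single AOM dose of 10 mg/kg with no DSS yet. The 2-week tissue followed AOM and the first course of 2% DSS in drinking water and is labelled as colitis. The 10-week tissue followed AOM and DSS and is labelled as tumour. In the protocol, DSS began 7 days after AOM, was given for 7 days and was followed by 14 days of plain water, for 3 cycles. The labels do not say that each array was a separate animal, so errors and p-values measure the spread between arrays, which may be technical.

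AOM is a carcinogen that, once activated in the body, alkylates DNA and causes mutations in the colonic epithelium. DSS damages the epithelial lining, lets bacteria reach the tissue beneath and brings on a colitis with repeated rounds of injury and repair. Given together they produce tumours of the colon that arise in inflamed tissue, and the model is used for colitis-associated colorectal cancer. Tumour tissue and normal colon differ in the mix of epithelial, immune, stromal and muscle cells they hold, and in these bulk samples fewer cells of a type and less RNA per cell cannot be told apart.

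No gene is named here for any probe. In the files, the gene field of all 145548 probes repeats the probe identifier and gives no genome position, so no member was placed in a gene, exon or UTR. For the same reason the tissue label could not be checked against markers of epithelium, muscle, immune or stromal cells. The members are therefore identified by their probe sequences. Each probe is 60 bases long, and bases 31 to 60 are given as written in the array files for the 15 members with the largest falls or the highest signal at 0 weeks, since these carry the results and can be matched to a transcript. Capitals mark a polyadenylation motif (AATAAA), which lies within these bases in A_55_P2837304 alone.

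A_66_P100777: gacatacaatgcttggatgcactattgaaa
A_52_P459818: ctcaaaaataagtttattctgagaggtggg
A_55_P2023114: caaggagtggggcttctgccttgattccag
A_55_P1995339: gtctgagagtagtgagggagaagagggaag
A_55_P2062777: cggtactgacaatacattgtctatattgtg
A_51_P406105: aggggcgtttacgtttgtttatacttaaaa
A_52_P401504: acgtcaaaactttttatatgaatgtggaaa
A_66_P131023: cttcctcatcatcgtgtcagacacactgcc
A_55_P2484406: acttgcttttcacataccctatcatattaa
A_52_P479522: ttttggagctgaaccttttgacccatttaa
A_51_P487175: aatgctcctgtaatctgccaacataaaatg
A_55_P2630896: gatggcttgcacagaaatttaagatacaat
A_55_P2837304: aattgaagactgtaaatacaaAATAAAatt
A_52_P686785: tagctctcattcttttccagcaagaagaac
A_51_P423290: tgtcacagcagatttcccaaagaaacttaa

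The 22 probes were selected on the levels of these same arrays, in the authors' deposited log2 table. A probe was taken if its means at 0, 1 and 2 weeks spanned less than 0.75, its 10-week mean lay at least 2 below each of those means, each 10-week array read below every earlier array, and its 0-week mean was at least 7. Of the catalogue probes, 16221 had a 0-week mean of at least 7, and 14667 of these were steady over the first 3 times, hereafter the steady bright probes. The 22 members are 0.15% of the steady bright probes, and 3075 probes missed the rule only because their fall was too small. Another 72 met all but the level, 24 all but the early span, and 0 all but the separation of the arrays.

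Some members sat close to the limits. The smallest depths below the lowest early mean were 2.00, 2.01 and 2.02, and the nearest probes outside had 1.97, 1.97 and 1.95. The widest early spans inside were 0.747, 0.745 and 0.716, with 0.758, 0.773 and 0.781 just outside. The lowest 0-week means inside were 7.00, 7.16 and 7.16, with 6.99, 6.95 and 6.90 just outside.

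The set depended on single arrays and on the scaling. Left without 10-week replicate 2, the rule gave 9 probes, 8 of them members. Left without 2-week replicate 1 it gave 36, and without 10-week replicate 3 it gave 56. When the scanner's processed signals were instead scaled to each array's 75th percentile, the rule gave 6 probes over percentiles of the probes well above background, 5 of them members, and 54 over percentiles of all probes, 20 of them members. Quantile normalization of the processed signals gave 21 probes, 20 of them members, while a normal-exponential background correction with quantile normalization gave 2, neither a member. That correction adds an offset of 50 to each signal, which shrinks the log2 falls of dim probes. The median change of the members from 0 to 10 weeks was -1.40 with it and -2.48 in the deposited table. Its count is therefore not on a like scale with the others.

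On the deposited log2 scale the group means of the 22 members had medians of 7.85, 7.89 and 7.79 at 0, 1 and 2 weeks, and of 5.41 in the 10-week tumours. The fall, taken as the 10-week mean minus the average of the 3 earlier means, ran from -2.17 to -3.50 with a median of -2.41. The median over the 14667 steady bright probes was -0.09, with quartiles of -0.42 and 0.20. Expressed as signal, the members kept 8.84% to 22.2% of their earlier level, with a median of 18.8%. Without 10-week replicate 2 they kept 13.3% to 39.5%, with a median of 24.4%; the lowest value, of A_66_P100777, rested on that array, where the probe was not well above background, and became 16.9%. These values chose the members and are given as a description.

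Most members kept a signal above background in tumour. All 22 were well above background on every array of the first 3 times by the scanner's own flag. At 10 weeks 18 remained so on all 3 arrays, and A_66_P100777, A_52_P459818, A_52_P627068 and A_52_P177490 remained so on 2 of 3. The array that missed was replicate 1 for A_52_P627068 and replicate 2 for the other three. Each member was measured by 1 spot per array and none of those spots was flagged as an outlier.

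The probe with the highest signal among them was A_51_P487175. Its deposited log2 values were 11.86, 11.61 and 11.79 at 0 weeks, 11.40, 11.54 and 11.23 after AOM at 1 week, 11.01, 11.31 and 10.95 in the 2-week colitis, and 9.16, 8.52 and 9.49 in the 10-week tumours. In the scanner's processed signal it read 3456, 3010 and 3248 units at 0 weeks and 572, 431 and 729 at 10 weeks. Its level was lower at each later time by the group means, and the 10-week arrays stood apart from the others by 1.46 log2 units at the nearest point. In limma's fit of the scaled processed signal the change from 0 to 10 weeks was -2.74 (SE 0.23).

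A small number of members fell by a like amount on all 3 tumour arrays. A_66_P131023 had the narrowest 10-week spread: it read 8.45, 8.52 and 8.49 at 0 weeks, 7.82, 8.33 and 8.02 after AOM at 1 week, 8.90, 8.80 and 8.61 in the 2-week colitis, and 5.89, 5.83 and 6.29 in the 10-week tumours on the deposited log2 scale. All 3 of its 2-week arrays were above its 0-week and 1-week arrays, so it was highest in colitis and lowest in tumour. Of all 22 members it and A_66_P100777 were the 2 that lay at least 2 log2 units below their early average on every 10-week array.

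A_55_P2484406 read 8.34, 8.29 and 7.87 at 0 weeks, 7.87, 8.16 and 7.64 after AOM at 1 week, 8.24, 8.33 and 8.39 in the 2-week colitis, and 5.39, 5.43 and 6.26 in the 10-week tumours. Its 2-week arrays lay above its 1-week arrays and overlapped the 0-week ones. Its highest tumour array lay 1.38 log2 units below its lowest early array, 1-week replicate 3. A_51_P423290 read 8.15, 7.82 and 8.09 at 0 weeks, 7.60, 8.17 and 7.81 after AOM at 1 week, 7.50, 8.03 and 7.98 in the 2-week colitis, and 5.58, 6.07 and 5.35 in the 10-week tumours. It is the single member whose lowest array was 10-week replicate 3. These were the 2 members that met the selection rule whichever array was left out.

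Most of the falls were deepest on 1 tumour array. In 15 of the 22 members (68.2%) 10-week replicate 2 was the lowest of the 3, against 25.7% of the steady bright probes. The rule used the 10-week mean, which 1 very low array can carry, so nothing is read from this difference in shares. In 11 members replicate 2 lay at least 1 log2 unit below both others, and in 16 members replicate 3 was the highest. Neither count was taken for other probes, so both are given as a description. The range over the 3 tumour arrays went from 0.462 to 4.70 log2 units, with a median of 1.65.

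With all 3 tumour arrays the largest fall was that of A_66_P100777. On the deposited log2 scale it read 7.52, 6.96 and 7.27 at 0 weeks, 6.59, 7.52 and 6.68 after AOM at 1 week, 5.88, 6.87 and 6.76 in the 2-week colitis, and 3.92, 1.53 and 4.74 in the 10-week tumours. Replicate 2 of the tumour arrays was the one not well above background for this probe. Its fall was -3.50 over all 3 tumour arrays and -2.57 without replicate 2, where A_51_P406105 (-2.91), A_55_P2062777 (-2.87) and A_52_P686785 (-2.62) fell further.

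A_52_P459818 was the member that rested most on that array. It read 8.11, 8.71 and 8.78 at 0 weeks, 8.78, 9.09 and 8.83 after AOM at 1 week, 7.54, 8.42 and 8.49 in the 2-week colitis, and 6.61, 2.71 and 7.41 in the 10-week tumours. Its highest tumour array was 0.133 log2 units below its lowest early array, 2-week replicate 1. Its fall was -2.95 with all tumour arrays and -1.52 without replicate 2, where it no longer met the rule.

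A_55_P2023114 had the same shape. It read 8.49, 8.72 and 8.97 at 0 weeks, 8.74, 8.99 and 8.92 after AOM at 1 week, 7.92, 8.30 and 8.50 in the 2-week colitis, and 6.84, 3.68 and 7.30 in the 10-week tumours, so that its fall of -2.67 became -1.54 without replicate 2. In A_55_P2630896, the second brightest member, the values were 10.58, 10.28 and 10.54 at 0 weeks, 10.33, 10.78 and 10.64 after AOM at 1 week, 9.85, 10.18 and 9.97 in the 2-week colitis, and 8.35, 6.70 and 8.89 in the 10-week tumours. Its 2-week arrays were all below its 0-week arrays, and its tumour arrays lay lower again.

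A_55_P1995339 and A_52_P401504 also had their lowest value on tumour replicate 2. A_55_P1995339 read 5.21, 4.20 and 6.58 on the tumour arrays against a 0-week mean of 7.74 (SD 0.23, n = 3). A_52_P401504 read 5.66, 4.24 and 6.54 against a 0-week mean of 8.10 (SD 0.17, n = 3). A_55_P2837304 read 7.06, 6.48 and 7.74 against 9.34 (SD 0.56, n = 3), which was the smallest fall of the set at -2.17.

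In 4 members replicate 2 was instead the highest tumour array. A_55_P2062777 read 7.61, 7.48 and 7.37 at 0 weeks, 7.04, 6.79 and 7.07 after AOM at 1 week, 6.26, 7.71 and 7.91 in the 2-week colitis, and 3.96, 5.35 and 4.80 in the 10-week tumours. A_51_P406105 read 7.40, 7.13 and 6.94 at 0 weeks, 6.63, 7.13 and 6.76 after AOM at 1 week, 7.58, 7.36 and 7.20 in the 2-week colitis, and 4.04, 5.30 and 4.40 in the 10-week tumours. A_52_P686785 had tumour values of 5.56, 6.46 and 5.76 against a 0-week mean of 8.41 (SD 0.17, n = 3). With A_51_P423290 these make up the 4, and the fall of each was larger without replicate 2 than with it. The remaining member of the 10 largest falls, A_52_P479522, read 3.87, 4.23 and 5.05 at 10 weeks against a 0-week mean of 7.22 (SD 0.11, n = 3).

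Each member was at least 1 log2 unit below its early average on all 3 tumour arrays, and the smallest fall on any array was -1.12. Without replicate 2 the median fall was -2.04, and 12 of the 22 were still at least 2 below their early average. The spread of the members between arrays was wider at 10 weeks than before. The median SD over members was 0.175 at 0 weeks, 0.243 at 1 week and 0.217 at 2 weeks, and it was 0.870 at 10 weeks. In 19 of 22 members the 10-week SD was above each of the 3 earlier ones. The rule used these same arrays, and no such figure was taken for other probes, so nothing is read from these SDs about tumour tissue.

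The 3 tumour arrays shared a slide and a scan day that held no other group, so slide, scan day and the 10-week condition cannot be told apart. The 2-week arrays were likewise alone on a slide of their own, whereas the 0-week and 1-week arrays were each spread over 2 slides. Between 33.4% and 44.6% of probes were well above background on an array, and the 10-week arrays were at the upper end. The spots of the members were spread over the array, on rows 15 to 1007 of 1064 and columns 3 to 155 of 170, with the closest pair 19.0 spots apart.

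In limma's moderated fit of the scaled processed signal over 62653 probes, with Benjamini-Hochberg adjusted p under 0.05 as the call, all 22 members were called lower at 10 weeks than at 0 weeks, where 10.4% of tested probes were called lower. All 22 were called lower than at 1 week, against 8.25% of tested probes, and 21 than at 2 weeks, against 7.58%. The exception was A_52_P459818, with a change of -2.39 (SE 0.90) from 2 to 10 weeks. The selection used these contrasts on these arrays, so nothing is read from those counts. The median change of the members on this scale was -2.24 from 0 weeks, -2.12 from 1 week and -2.11 from 2 weeks, and the median over all tested probes was 0.23, 0.24 and 0.27. The overall split of calls moved with the scaling: from 0 to 10 weeks 6505 probes were called lower and 14276 higher, but 13391 lower and 6842 higher with the percentile over all probes, and 9679 and 8728 with quantile normalization.

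Between the first 3 times the selection held the members within 0.75 log2 units, and what differences remained were small. On the deposited log2 scale all 1-week arrays lay above all 0-week arrays in 3 members and below them in 6. From 0 to 2 weeks these counts were 2 and 5, and from 1 to 2 weeks 4 and 3. They were not taken for other probes. In limma's fit 0 of the 22 were called changed between 0 and 1 week, where 0.977% of tested probes were called. There were 0 between 0 and 2 weeks, where 8.38% were, and 0 between 1 and 2 weeks, where 1.11% were. The residual SD of that fit was pooled over all groups, including the tumour arrays. Its median was 0.518 over members and 0.295 over all tested probes, so a missing early call is not read as no change. At an unadjusted p under 0.05 there were 2 members in each of the 3 comparisons, against 18% of all tested probes from 0 to 1 week, 26.7% from 0 to 2 weeks and 12.3% from 1 to 2 weeks; the limit on the early span was part of the selection, so nothing is read from these shares. With the normal-exponential correction A_51_P487175 was called lower at 2 weeks than at 0 weeks, by -0.66 (SE 0.18). A_66_P131023 was called higher at 2 weeks than at 1 week with that correction, by 0.63 (SE 0.11), and also with the slide as a random block, by 0.73 (SE 0.16). The correlation within slides estimated for that block was -0.0898, and each slide held 1 group. The block is therefore not an allowance for a slide effect.

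The order of the early means was mixed. On the deposited log2 scale 14 members were lower and 8 higher at 1 week than at 0 weeks, with a median difference of -0.19, where 45.9% of the steady bright probes were lower and their median was 0.03. At 2 weeks 16 were lower and 6 higher than at 0 weeks, with a median difference of -0.17, where 46.8% of the steady bright probes were lower and their median was 0.03. From 1 to 2 weeks 13 were lower and 9 higher, where 48.3% of the steady bright probes were lower. All 3 early means were part of the selection, so no early decline is read from these counts. A steady descent over 0, 1 and 2 weeks was seen in 5 members, which is as many as had their highest mean at 1 week and lowest at 2 weeks. A further 6 dipped at 1 week and partly returned at 2 weeks, and in 3 the 2-week mean was the highest of all.

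On some early arrays most members lay on the same side of their own early average. On 2-week replicate 1, 18 of 22 members were below their own early average, against 47.7% of the steady bright probes, and it was the lowest early array for 11 members. On 1-week replicate 2, 18 were above their average, with 62.5% of the steady bright probes, and it was the highest early array for 11. On 1-week replicate 1, 18 were below, with 65% of the steady bright probes, and on 0-week replicate 3, 19 were above, with 57.1%. The early values entered the selection, so these counts are given as a description.

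In sequence the members were close to the other probes. Their G and C content started at 31.7% and had a median of 41.7%, where the steady bright probes had a median of 45.0% and all catalogue probes 41.7%. A CG dinucleotide was absent from 11 of 22 members, from 41.3% of the steady bright probes and from 49.4% of all catalogue probes. The motif AATAAA was found as written in 2 members (9.09%), A_51_P423290 and A_55_P2837304, and in 8.44% of the steady bright probes. On the opposite strand it was found in 2 members (9.09%) against 3.29%. The variant ATTAAA was found in 0 members on either strand, and in 3.27% of steady bright probes as written. A reading frame with no stop over the whole probe was present in 19 members (86.4%), in 85.1% of steady bright probes and in 79.6% of all catalogue probes.

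No pair of members targeted overlapping sequence: the longest stretch shared by any 2 was 11 bases. Searched for shared runs of 25 bases, the members matched 0 other probes of the array, 0 of 32851 promoter windows and 0 of 2743 miRNA sequences from RefSeq. Those windows cover only the start of each gene, so no match there says only that these bases are not in them. An miRNA sequence shorter than 25 bases could not have matched in this search.

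The same rule applied to the custom-design probes gave 2 of 6045 steady bright ones (0.0331%), against 0.15% of the steady bright catalogue probes. CUST_OEV3_028333 had means of 8.13, 8.60 and 8.11 at the first 3 times and 5.91 at 10 weeks. CUST_OEV3_042683 had means of 7.20, 6.76 and 6.92 and then 3.38, a fall of -3.58 against -3.50 for the deepest catalogue member. Turned the other way, with every 10-week array above every earlier array, the rule gave 11 catalogue probes. It kept the 0-week limit of 7, so probes that were dim at 0 weeks and rose later are not in that count. Falls of at least 1 log2 unit were seen in 739 of the steady bright catalogue probes and rises of at least 1 in 227, and this balance carries the scaling of the deposited table, whose 12 columns all have a median of 2.92.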

How the data were processed

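Total RNA from 12 samples was hybridised to 1-colour Agilent arrays, 3 per group. Per the file headers, the authors' scanner intensity values (processed signal) came from Agilent Feature Extraction 10.7.1.1. The authors also deposited a table of log2 values, whose columns share the same median of 2.92 and correlate with the log2 processed signal at 0.9953 or more. Its normalization is not given in the sources used here. The members were selected on that table and its values are printed by array. Control spots were dropped, as were spots with a non-uniformity or population-outlier flag, and repeat spots were averaged per probe after taking log2. For the fit, log2 processed signal had each array's 75th percentile subtracted, with the percentile computed on the 42481 probes that passed the background flag on every array. Probes passing that flag on 3 or more arrays (62653) were fitted over all 4 groups with limma 3.58.1 in R 4.3.3 (lmFit, eBayes) and Benjamini-Hochberg adjustment. The number of arrays limits the precision. The steps were tested on simulated data.

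The members, the marker lists and the rules were chosen with earlier results of these data known. Probes are named where they have 1 of the 10 largest falls or of the 10 highest 0-week means, and where they are the exception in a count. The 14 marker lists (174 genes) could not be applied, since 0 probes pair with a gene. Same-numbered arrays did not pair: of 18 pairs, 1 had a correlation of deviations above 0.1 (-0.099 to 0.191). Alternatives were other scalings, no filter, 2 groups at a time, a replicate block, other limits of the rule and each array left out. A random slide block was added after seeing the data.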

Additional observations from a re-analysis of the deposited data

How the results depend on the processing

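The number of members, 22, was 6 with the 75th percentile over probes above background and 54 with it over all probes. It was 2 with the normal-exponential correction and its offset of 50. It was 12 with an early span under 0.5, 92 and 2 with falls of at least 1.5 and 2.5, and 40 and 10 with 0-week means of at least 6 and 8. Leaving out 1 array gave 9 to 56. Of the members, 0 were kept under all 4 scalings and 2 under every omission of an array. Members called lower at 10 weeks numbered 18 to 22 against 0 weeks, 19 to 22 against 1 week and 17 to 22 against 2 weeks. With 2 groups alone they were 18, 19 and 17, where 5745, 3424 and 3879 of all tested probes were called lower. Members called changed were 1 at 2 weeks against 0 weeks with the normal-exponential correction, and 1 at 2 weeks against 1 week with it and with the slide as a random block. With a replicate block the counts of members were 22, 22, 21, 0, 0 and 0. Over all tested probes that block gave 6286, 4852 and 4430 called lower at 10 weeks. It gave 321, 3988 and 501 called changed between the earlier times. The median change from 0 to 10 weeks went from -1.40 (normal-exponential) to -2.59 (percentile over all probes). Of 210 values for the 15 named probes, none reversed and 6 lost the call: A_52_P459818 without the filter (limma adjusted p = 0.0678), with 2 groups alone (0.0885) and without 0-week replicate 1, 2 or 3 (0.0601, 0.0833 and 0.0822), and A_55_P2023114 with 2 groups alone (0.0515). Calls over all tested probes split as 6505 lower and 14276 higher from 0 to 10 weeks, 5166 and 10984 from 1 week, and 4751 and 14713 from 2 weeks. In the same order, the percentile over all probes gave 13391 and 6842, 11285 and 4208, and 13828 and 5840. Quantile normalization gave 9679 and 8728, 7597 and 5435, and 7056 and 6025. The normal-exponential correction gave 10109 and 9385, 7917 and 6795, and 7624 and 6768, and the authors' deposited values gave 9626 and 8692, 7534 and 5372, and 7004 and 5950. Changed probes numbered 612, 5251 and 698 for 1 against 0, 2 against 0 and 2 against 1 week. They were 173, 2518 and 390 without the filter, 1393, 8810 and 1293 with the random slide block, 13, 3329 and 291 with 2 groups alone, and 47 to 1131, 1802 to 5839 and 329 to 951 with 1 array left out. Leaving out 1 array gave 9194 to 14822 calls in all from 1 to 10 weeks and 11335 to 15887 from 2 to 10 weeks. For 1 against 0 weeks the count was also 1675 with the normal-exponential correction and 321 with the replicate block. A slide effect could not be fitted as a fixed block because each slide holds 1 group. The random slide block, with an estimated correlation within slides of -0.0898, does not allow for such an effect either.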
